A study of Mus musculus with 10 samples.

Results

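Imprinted genes are expressed mainly from the chromosome inherited from 1 parent, and 40 of them were followed here through the reprogramming of mouse embryonic fibroblasts (MEFs). The 40 genes, of 45706 in the deposited tables, were taken by symbol from a list, and the rule uses no measured values. They lie in 16 imprinted clusters. By textbook assignment 18 are expressed from the maternal and 22 from the paternal chromosome. The libraries did not separate the alleles, so every value below is the summed output of both.

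RNA-seq was available for 5 groups with 2 libraries each. The MEF group and the day 3, day 6 and day 9 groups came from C57BL/6 x 129 mice with the OKSM cassette (Oct4, Klf4, Sox2 and Myc) in Col1a1 and M2rtTA in Rosa26. MEFs were kept in MEF medium without doxycycline. Day 3, 6 and 9 cells were kept in embryonic stem cell medium with LIF at 1000 U/ml, doxycycline at 1 µg/ml and ascorbic acid at 50 µg/ml. MEF and day 3 cells were unsorted, whereas sorting for SSEA1, an antigen of early pluripotent cells, preceded RNA extraction on days 6 and 9. The embryonic stem cells (ESCs) were V6.5, 1 line of the same strain cross for which no cassette is named, grown unsorted on irradiated feeder cells in the same medium without doxycycline. Induction, medium and ascorbic acid therefore changed together between MEF and day 3, and sorting began between day 3 and day 6. Their effects cannot be told apart, and in these bulk libraries fewer cells of a type and less RNA per cell cannot be told apart either.

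Imprints are set in the germ line as DNA methylation of 1 parental copy of a control region, and each control region governs several neighbouring genes. In many clusters a long noncoding RNA from one chromosome accompanies silencing of protein-coding genes on it, while in others the protein CTCF or a methylated promoter separates the alleles. Many imprinted genes act on growth of the fetus and placenta. In pluripotent cell lines these loci are watched because imprints can be lost or gained in culture, with the maternal noncoding RNAs Meg3, Rian and Mirg the best-known case in induced pluripotent cells.

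The deposited files hold RNA only, so the sequences of 3 well-known differentially methylated promoters are shown for orientation. ZFP57 is a zinc finger protein that holds methylation at control regions and binds TGCCGC when its CpG is methylated. The 250 bases before the start of Mest (chr6:30737800-30738049, plus strand), of Plagl1 (chr10:13090582-13090831, plus strand) and of Meg3 (chr12:109540746-109540995, plus strand) were taken from the RefSeq promoter table on GRCm38.p6. Capitals mark GCGGCA, the reverse complement of that motif.
Mest: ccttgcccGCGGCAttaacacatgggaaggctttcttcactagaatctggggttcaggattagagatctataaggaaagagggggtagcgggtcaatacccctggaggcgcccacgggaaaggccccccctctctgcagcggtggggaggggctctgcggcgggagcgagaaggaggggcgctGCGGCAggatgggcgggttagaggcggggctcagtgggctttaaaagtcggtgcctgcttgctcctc
Plagl1: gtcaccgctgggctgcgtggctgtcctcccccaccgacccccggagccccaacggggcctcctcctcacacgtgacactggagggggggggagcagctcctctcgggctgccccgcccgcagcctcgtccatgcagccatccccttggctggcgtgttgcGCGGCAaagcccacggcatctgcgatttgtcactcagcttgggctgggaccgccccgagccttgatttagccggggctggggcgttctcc
Meg3: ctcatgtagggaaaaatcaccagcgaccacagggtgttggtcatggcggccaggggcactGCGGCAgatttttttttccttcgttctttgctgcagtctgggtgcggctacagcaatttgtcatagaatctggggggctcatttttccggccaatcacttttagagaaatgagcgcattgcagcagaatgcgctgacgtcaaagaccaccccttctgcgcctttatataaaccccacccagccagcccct

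The run before Mest held 2 matches and those before Plagl1 and Meg3 held 1 each. Over the RefSeq windows of 300 bases (250 before and 50 after a start), 31 of the 40 genes had 46 windows between them. TGCCGC on either strand lay in 10 of these 46 windows (21.7%), which belong to 9 genes: Igf2, Meg3, Zim1, Mest, Copg2, Plagl1, Grb10, Snrpn and Nnat. It lay in 11.6% of all 32851 windows in the table. AANATGGC, a motif of the zinc finger protein YY1, lay in 2 of the 46 windows (4.35%), those of Mkrn3 and Ube3a, against 6.05% of all windows. The windows of the imprinted genes held a median of 13 CpG dinucleotides against 7 over all windows, and windows of 1 gene can overlap. These matches describe letters in a window and no binding was measured.

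Libraries held 29585876 to 38275024 estimated reads. The 10 fibroblast and feeder markers summed to 6399 to 6524 TPM (a read level per transcript length, scaled to a common total) in MEFs and 12.6 to 12.8 TPM at day 9. The 10 pluripotency markers summed to 3.14 to 5.27 TPM in MEFs and 3492 to 3519 TPM in ESCs, where none was under 1 TPM. Xist, the RNA of the inactive X chromosome, stood at 0.045 and 0.175 TPM in MEFs, 148 to 181 TPM in the 6 induced libraries and 0.908 and 0.966 TPM in ESCs. The labels name no donor embryos, so a difference between donors and the change from MEF to day 3 cannot be told apart. Below, "before induction" means the MEF libraries, whichever donors they came from.

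As a whole, the 40 genes took their largest share of the reads on day 3 and their smallest in ESCs. They took 1.05% and 1.06% of the reads in MEFs, 1.4% and 1.39% on day 3, 0.971% and 0.988% on day 6, 0.469% and 0.472% on day 9 and 0.23% and 0.222% in the ESC libraries. On the TPM scale their summed group mean was 4220 in MEFs, 5010 on day 3, 3470 on day 6, 1530 on day 9 and 760 in the ESC libraries. H19 alone made up 27.8% of that sum in MEFs, 55.5% at day 3 and 40.8% at day 6. Rian led at day 9 with 25.8% and in ESCs with 25.4%. The 18 maternally expressed genes summed to 3169 and 3127 TPM in the MEF libraries, 4441 and 4480 at day 3, 2992 and 2987 at day 6, 1353 and 1336 at day 9, and 676 and 632 in ESCs. Without Gnas, whose main promoters are expressed from both alleles in most tissues, the other 17 summed to 2570 and 2523 TPM in MEFs, 3799 and 3810 on day 3, 2643 and 2634 on day 6, 1113 and 1095 on day 9 and 536 and 498 in ESCs. The 22 paternally expressed genes summed to 1090 and 1054 TPM in MEFs, 531 and 576 on day 3, 476 and 485 on day 6, 183 and 186 on day 9 and 107 and 105 in the ESC libraries. Of the 40 genes, 17 had their highest group mean in MEFs, 5 on day 3, 8 on day 6, 2 on day 9 and 8 in the ESC libraries.

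**Figure D1:**
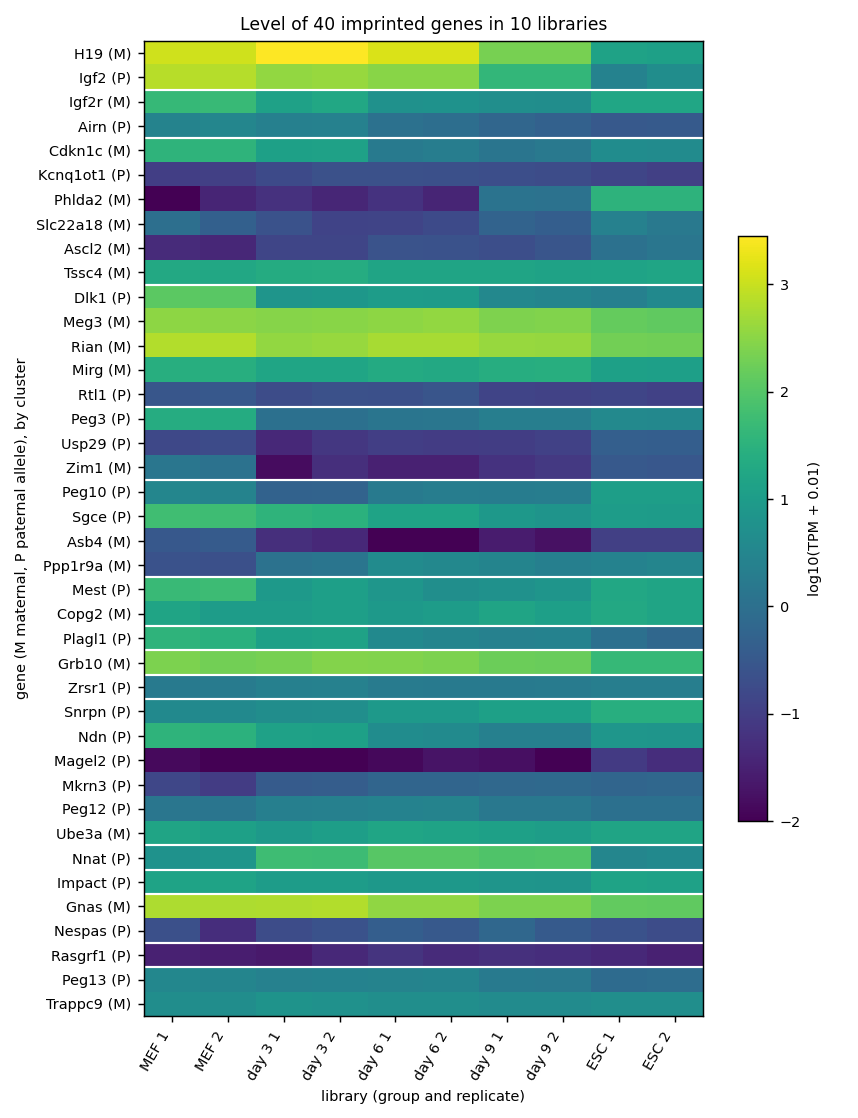
Level of each imprinted gene (rows, grouped by cluster with white lines, M maternal and P paternal allele) in each of the 10 libraries (columns), as log10(TPM + 0.01). Both libraries of a group look alike in most rows, H19 is brightest at day 3, and Phlda2 is dark in MEF, day 3 and day 6, intermediate at day 9 and bright in ESCs.

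Fold changes below are log2 fold changes of TMM-scaled counts from 1 edgeR quasi-likelihood fit over all libraries and 20165 genes, with a standard error (SE) and a Benjamini-Hochberg adjusted p over all of those genes. A gene is said to rise or fall only at an adjusted p under 0.05 and at least a 2-fold change. All 40 genes passed the filter on low counts. TPM also depends on the length of the transcripts to which reads were assigned, so a ratio of TPM values can differ from the fold change.

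The H19 and Igf2 pair on chromosome 7 held the highest levels in MEFs. Coordinates are on GRCm38. H19 (chr7:142575529-142578143, minus strand) is a maternally expressed noncoding RNA, and Igf2 (chr7:142650766-142666816, minus strand) encodes a paternally expressed growth ligand. They share an enhancer set and a control region bound by CTCF. H19 read 1170 and 1170 TPM in MEF, then 2830 and 2730 on day 3, 1420 and 1410 on day 6 and 211 and 215 on day 9, and 14 and 12.3 in ESC. Between MEF and day 3 it rose, its log2 fold change being 1.22 (SE 0.03, adjusted p = 2.9e-13), and its day 3 libraries were the highest of all 10. From day 6 to day 9 H19 fell, at -2.65 (SE 0.03, adjusted p = 1.4e-14), and it was lower again in ESCs than at day 9, at -4.26 (SE 0.04, adjusted p = 1.1e-17). Igf2 read 728 and 707 TPM before induction, 372 and 418 on day 3, 299 and 308 on day 6, 40 and 41.1 on day 9, and 2.58 and 4.72 in the ESC libraries. Its level was highest in MEFs and lowest in ESCs, with no overlap between successive groups. The change of Igf2 from MEF to day 3 of -0.85 (SE 0.05, adjusted p = 1.1e-09) was under the 2-fold minimum. Its later fall from day 6 to day 9 was -2.85 (SE 0.05, adjusted p = 2.2e-13) and its difference between ESC and day 9 was -3.85 (SE 0.07, adjusted p = 4.8e-15). The ratio of H19 to Igf2 on the TPM scale was 1.61 and 1.66 in MEFs, 7.61 and 6.54 on day 3, 4.75 and 4.58 on day 6, 5.27 and 5.23 on day 9 and 5.43 and 2.61 in the ESC libraries. H19 thus exceeded Igf2 in every library, and the MEF ratios were the lowest of the 10.

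Genes that act on the same growth axis did not move together. Igf2r (chr17:12682406-12769664, minus strand) encodes the maternally expressed receptor that clears IGF2, and Airn is the paternally expressed antisense RNA that starts inside it. Igf2r read 45.9 and 47.2 TPM in the MEF libraries, 13.4 and 18.8 on day 3, 5.79 and 5.9 on day 6, 4.97 and 4.7 on day 9 and 17.1 and 17 in the ESC libraries. It fell from MEF to day 3, at -1.59 (SE 0.03, adjusted p = 7.6e-15), and from day 3 to day 6, at -1.18 (SE 0.03, adjusted p = 8.1e-13). Its ESC levels lay above those of day 6 and day 9, but the difference from day 9 of 0.9 (SE 0.03, adjusted p = 7.5e-12) was under the 2-fold minimum. The reads behind it went from 2893 and 3708 on day 9 to 5913 and 6553 in ESCs, a smaller ratio than that of the TPM values. Airn read 2.74 and 3.23 TPM in MEF, then 2.31 and 2.52 on day 3, 1.05 and 0.907 on day 6 and 0.627 and 0.485 on day 9, and 0.327 and 0.337 in ESC. The level of Airn fell from day 3 to day 6, at -1.6 (SE 0.25, adjusted p = 8.6e-05). The ratio of Igf2r to Airn was 16.8 and 14.6 in MEFs, 5.54 to 9.7 in the 6 induced libraries and 52.3 and 50.5 in ESCs. In ESCs the main Igf2r transcript took 99.6% and 99.8% of the reads of Igf2r but only 9.81 and 9.69 TPM. In MEFs it took 99.8% and 99.7% of the reads and 35.5 and 34.5 TPM. This ratio therefore depends on transcript length as well. The genes overlap on opposite strands, and whether the counting used the strand is not given in the sources used here, so their reads cannot be told apart.

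Grb10 (chr11:11930508-12038683, minus strand), a maternally expressed adaptor that dampens insulin and IGF receptor signalling, read 241 and 199 TPM before induction, 217 and 272 on day 3, 259 and 234 on day 6, 165 and 158 on day 9, and 46 and 44.1 in the ESC libraries. The MEF, day 3 and day 6 libraries overlapped, and the ESC libraries lay below all others. In none of the 4 comparisons among MEF and induced cells did it pass, and it was lower in ESCs than at day 9, at -2.17 (SE 0.03, adjusted p = 3.8e-16). Transcripts that start between 12037401 and 12038683, the upstream end of the gene, took 42.8% and 52.1% of its TPM in MEFs and 44.4% and 52.1% in ESCs, and these shares overlapped between the groups. The share of starts between 12026324 and 12027971 was highest at day 3, at 35.2% and 23.2%. It was 17.8% and 14% in MEFs, 17.7% and 16.6% on day 6, 15.3% and 21.1% on day 9 and 12.8% and 9.71% in ESCs. Plagl1 (chr10:13060504-13131694, plus strand), the paternally expressed zinc finger gene also called Zac1, read 35.5 and 28.5 TPM in the MEF libraries, 12.5 and 13.7 on day 3, 3.82 and 3.07 on day 6, 2.5 and 2.55 on day 9 and 1.02 and 0.641 in the ESC libraries. Its steps were -1.05 (SE 0.04, adjusted p = 1.1e-11) from MEF to day 3 and -2.24 (SE 0.05, adjusted p = 5.4e-14) from day 3 to day 6. Plagl1 was lower still in ESCs than at day 9, at -1.73 (SE 0.07, adjusted p = 2.7e-11).

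The Kcnq1ot1 domain on chromosome 7 held genes that fell early, and 4 of its genes (Cdkn1c, Phlda2, Slc22a18 and Ascl2) were higher in ESCs than on day 9. Cdkn1c (chr7:143458339-143461050, minus strand), the maternally expressed cell cycle inhibitor p57, read 35.9 and 34.5 TPM in MEF, then 12.8 and 13 on day 3, 1.76 and 2 on day 6 and 1.33 and 1.57 on day 9, and 4.55 and 4.24 in ESC. Successive groups did not overlap, with the lowest libraries at day 9. It fell from MEF to day 3, at -1.47 (SE 0.05, adjusted p = 6.3e-12), fell further to day 6, at -2.77 (SE 0.07, adjusted p = 5.1e-13), and was higher in ESCs than at day 9, at 1.43 (SE 0.09, adjusted p = 2.3e-09). Phlda2 (chr7:143501545-143503150, minus strand) encodes a pleckstrin homology protein that restrains placental growth. It read 0 and 0.0272 TPM before induction, 0.0485 and 0.0277 on day 3, 0.0538 and 0.0274 on day 6, 1.19 and 1.1 on day 9, and 33.6 and 33.8 in the ESC libraries. These levels rest on 0 and 1 reads in the MEF libraries, 2 and 1 on day 3, 2 and 1 on day 6, 43 and 51 on day 9 and 1186 and 1339 in the ESC libraries. Phlda2 was called higher at day 9 than at day 6 and day 3, where 1 or 2 reads per library leave no fold to give, and it rose between day 9 and ESC by 4.73 (SE 0.13, adjusted p = 2.8e-13). Slc22a18, a solute carrier that neighbours Phlda2, read 0.95 and 0.466 TPM in MEF, then 0.228 and 0.113 on day 3, 0.121 and 0.159 on day 6 and 0.521 and 0.415 on day 9, and 2.53 and 1.62 in ESC. It fell from MEF to day 3, at -2.05 (SE 0.32, adjusted p = 6.2e-05), rose from day 6 to day 9, at 1.87 (SE 0.34, adjusted p = 0.00057), and was higher again in ESCs than at day 9, at 1.96 (SE 0.26, adjusted p = 1.1e-05).

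The other genes of that domain were low or passed in no comparison. Ascl2, a transcription factor of the trophoblast, read 0.0378 and 0.0306 TPM before induction, 0.127 and 0.125 on day 3, 0.242 and 0.226 on day 6, 0.197 and 0.267 on day 9, and 1.07 and 1.37 in the ESC libraries. Its day 3 level was called higher than that of MEFs, on 3 and 3 reads in MEFs against 14 and 12, and ESCs were above day 9 by 2.23 (SE 0.29, adjusted p = 1e-05). Tssc4, a splicing factor, read 19.9 and 18.2 TPM in the MEF libraries, 22.5 and 23.2 on day 3, 15 and 14.9 on day 6, 15 and 14 on day 9 and 14.6 and 15.9 in the ESC libraries. Tssc4 passed in no comparison. Kcnq1ot1 itself, the paternally expressed antisense RNA of the domain, stayed between 0.0951 and 0.212 TPM. TPM is low here for a transcript of 84395 nt, which held 468.1 to 1330.2 reads per library. Kcnq1ot1 passed in none of the 6 comparisons. Its change from MEF to day 3 of 0.9 (SE 0.12, adjusted p = 1.2e-05) was under the 2-fold minimum. So was its difference between ESC and day 9 of -0.83 (SE 0.11, adjusted p = 1.6e-05). Beside Phlda2 and Ascl2, the 6 trophoblast markers summed to 0.552 to 2.97 TPM in MEF and day 3 libraries, 10.2 to 10.8 at day 6, 12.2 to 13.1 at day 9 and 9.41 to 10.9 in ESCs. Of those markers Cdx2 was at 0 TPM in every MEF and induced library and at 0.0286 and 0.0191 TPM in ESCs. Tfap2c made up most of the sums from day 6 on, with 7.38 to 9.01 TPM. Elf5 rose from day 3 to day 6, at 2.28 (SE 0.32, adjusted p = 2.9e-05), and to day 9, at 3.08 (SE 0.22, adjusted p = 8.3e-08), where it read 4.08 and 3.01 TPM, and was lower in ESCs, at -3.93 (SE 0.24, adjusted p = 2.3e-09). Eomes and Hand1 went the other way and were higher in ESCs than at day 9. Eomes differed by 4.85 (SE 0.48, adjusted p = 5e-07), on 7 and 6 reads at day 9 and 186.2 and 201 in ESCs. Hand1 differed by 2.51 (SE 0.74, adjusted p = 0.0085), on 1 and 4 reads against 10 and 20. Gata3 passed in no comparison. The part of trophoblast-like expression in the levels of Phlda2 and Ascl2 was not tested.

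The Dlk1-Dio3 region on chromosome 12 held Dlk1, which fell from MEF to day 3, and the noncoding RNAs Meg3, Rian and Mirg, which were detected throughout and lowest in ESCs. Meg3 (chr12:109541001-109571726, plus strand), Rian (chr12:109603940-109661716, plus strand) and Mirg (chr12:109729764-109749460, plus strand) are maternally expressed noncoding RNAs in a row. Rian hosts small nucleolar RNAs and Mirg hosts microRNAs, with 14 RefSeq hairpins on the strand of Mirg, 3 on that of Rian and 1 on that of Meg3. Meg3 read 336 and 318 TPM in MEF, then 290 and 304 on day 3, 330 and 368 on day 6 and 250 and 259 on day 9, and 149 and 129 in ESC. For Rian the levels were 657 and 680 TPM before induction, 370 and 402 on day 3, 555 and 545 on day 6, 403 and 386 on day 9, and 198 and 189 in the ESC libraries. Mirg read 26.3 and 26.2 TPM in the MEF libraries, 16.2 and 16.1 on day 3, 21.9 and 19.7 on day 6, 25.1 and 25.7 on day 9 and 12.8 and 11.7 in the ESC libraries. For each of the 3 RNAs both ESC libraries lay below the other 8. None of them passed in the 4 comparisons among MEF and induced cells. In ESCs all 3 were lower than at day 9: Meg3 at -1.24 (SE 0.07, adjusted p = 9.3e-10), Rian at -1.2 (SE 0.03, adjusted p = 1.1e-13) and Mirg at -1.25 (SE 0.06, adjusted p = 2e-10). On TPM values in limma these differences were smaller: the call of Meg3 was lost at both pseudocounts, at -0.87 with a pseudocount of 1 and -0.88 with 0.1, and that of Mirg with a pseudocount of 1, at -0.99, while Rian kept its call at -1.02 and -1.03. They were also lower in ESCs than in MEFs, with Rian at -1.99 (SE 0.03, adjusted p = 4.5e-16). The ratio of Rian to Mirg was 22.8 to 27.7 in the MEF, day 3 and day 6 libraries, 16.1 and 15 at day 9, and 15.4 and 16.1 in ESCs.

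Of the protein-coding genes of the region, expressed from the paternal chromosome, Dlk1 followed another course. Rtl1, like the noncoding RNAs, passed in no comparison among MEF and induced cells. Dlk1 (chr12:109452823-109463336, plus strand) encodes a transmembrane protein of the Notch ligand family that marks immature stromal cells. It read 119 and 115 TPM in MEF, then 7.06 and 7.86 on day 3, 10.2 and 9.88 on day 6 and 3.57 and 3.01 on day 9, and 2.38 and 3.88 in ESC. Both MEF libraries stood far above the other 8. Dlk1 fell from MEF to day 3, at -3.96 (SE 0.07, adjusted p = 4e-15), and from day 6 to day 9, at -1.45 (SE 0.1, adjusted p = 5.4e-08). The ratio of Meg3 to Dlk1 was 2.81 and 2.77 in MEFs and 32.3 to 86.3 in the other 8 libraries. Rtl1, a retrotransposon-derived gene needed in the placenta, read 0.283 and 0.31 TPM before induction, 0.175 and 0.219 on day 3, 0.208 and 0.258 on day 6, 0.122 and 0.111 on day 9, and 0.125 and 0.101 in the ESC libraries. It passed only between ESC and MEF, at -1.48 (SE 0.22, adjusted p = 2.5e-05). RefSeq places 1 microRNA hairpin on the strand of Rtl1 and 6 on the opposite strand, where the maternal transcripts run.

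**Figure D2:**
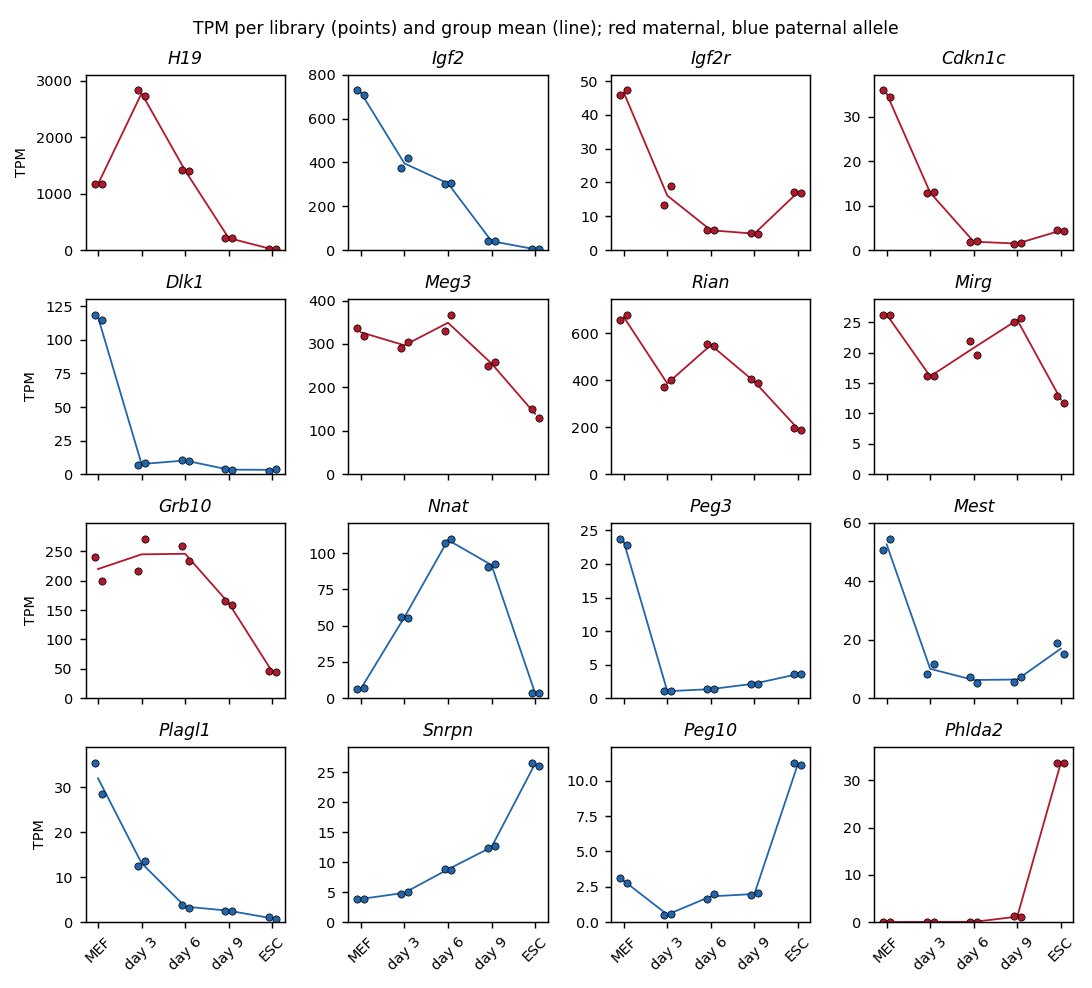
TPM of 16 imprinted genes in each library (points) and group means (lines) from MEF through day 3, 6 and 9 to ESC, with red for maternally and blue for paternally expressed genes; each panel has its own linear axis from 0. H19 peaks at day 3 and Nnat at day 6, Dlk1 and Peg3 drop between MEF and day 3, and Phlda2, Peg10 and Snrpn are highest in ESCs.

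The Peg3 cluster on chromosome 7 fell at the first step. Peg3 (chr7:6703892-6730431, minus strand), a paternally expressed zinc finger gene, read 23.8 and 22.8 TPM in the MEF libraries, 1 and 1.03 on day 3, 1.32 and 1.35 on day 6, 2.16 and 2.14 on day 9 and 3.59 and 3.57 in the ESC libraries. Its change from MEF to day 3 was -4.54 (SE 0.04, adjusted p = 3.9e-18), among the larger falls of the 40 genes. By day 9 it was above its day 3 level by 1.16 (SE 0.04, adjusted p = 1.3e-11), still under every MEF library. Usp29, a ubiquitin-specific protease gene that starts beside Peg3 and runs the other way, read 0.14 and 0.162 TPM in MEF, then 0.0324 and 0.0651 on day 3, 0.0936 and 0.0839 on day 6 and 0.0855 and 0.106 on day 9, and 0.436 and 0.416 in ESC. This low level came from 25.4 and 33.4 reads before induction, 9.4 and 14.9 on day 3, 29.1 and 21.6 on day 6, 22.1 and 39.2 on day 9, and 126.5 and 110.2 in the ESC libraries. Usp29 fell from MEF to day 3, at -1.5 (SE 0.38, adjusted p = 0.0031), and was higher in ESCs than at day 9, at 1.96 (SE 0.31, adjusted p = 5.6e-05). Zim1, a maternally expressed zinc finger gene next to Peg3, read 1.39 and 1.13 TPM in the MEF libraries, 0.00484 and 0.0431 on day 3, 0.0215 and 0.0219 on day 6, 0.0516 and 0.0704 on day 9 and 0.328 and 0.287 in the ESC libraries. Behind these levels were 251 and 255 reads in MEF, then 1 and 10 on day 3, 4 and 5 on day 6 and 12 and 21 on day 9, and 70 and 70 in ESC. Zim1 fell from MEF to day 3 and was higher in ESCs than at day 9, at 2.07 (SE 0.39, adjusted p = 3e-04).

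In the Peg10-Sgce cluster on chromosome 6 the divergent neighbours both fell at first and then went opposite ways from day 3 to day 6. Peg10 (chr6:4747306-4760517, plus strand), a paternally expressed gene derived from a retrotransposon and needed in the placenta, read 3.1 and 2.75 TPM before induction, 0.514 and 0.546 on day 3, 1.65 and 2 on day 6, 1.92 and 2.06 on day 9, and 11.3 and 11.1 in the ESC libraries. The day 3 libraries were the lowest and the ESC libraries the highest. It fell from MEF to day 3, at -2.45 (SE 0.07, adjusted p = 5.3e-13), rose from day 3 to day 6, at 1.78 (SE 0.07, adjusted p = 6.6e-11), and was higher in ESCs than at day 9, at 2.32 (SE 0.05, adjusted p = 1.9e-14). Sgce (chr6:4674350-4747207, minus strand), which encodes epsilon-sarcoglycan and starts beside Peg10 on the other strand, read 59.6 and 56.1 TPM in the MEF libraries, 35.6 and 29.6 on day 3, 14.8 and 14.6 on day 6, 7.94 and 6.59 on day 9 and 10.1 and 9.61 in the ESC libraries. Sgce fell from MEF to day 3, at -1.1 (SE 0.05, adjusted p = 8.1e-11), and again to day 6, at -1.1 (SE 0.06, adjusted p = 7.4e-10). The ratio of Peg10 to Sgce was 0.0519 and 0.049 in MEFs, 0.0145 and 0.0184 on day 3, 0.112 and 0.136 on day 6, 0.242 and 0.313 on day 9 and 1.13 and 1.16 in the ESC libraries. Both are expressed from the paternal chromosome, and on the TPM scale Peg10 exceeded Sgce in the ESC libraries alone. A Sgce transcript of 301 nt held 7.3% of the Sgce reads but 39.7 of its 59.6 TPM in MEF replicate 1. In ESC replicate 1 it held 6.6% of the reads but 6.36 of 10.1 TPM. The ratio of Peg10 to Sgce therefore depends on transcript length as well.

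The maternally expressed genes of that cluster differed as well. Ppp1r9a encodes neurabin, a protein that binds actin and protein phosphatase 1, and read 0.227 and 0.205 TPM in MEF, then 1.13 and 1.28 on day 3, 4.31 and 3.52 on day 6 and 2.88 and 2.27 on day 9, and 2.65 and 3.05 in ESC. It rose from MEF to day 3, at 2.51 (SE 0.1, adjusted p = 3.1e-11), and from day 3 to day 6, at 1.27 (SE 0.07, adjusted p = 9.7e-10). Asb4, a gene with ankyrin repeats and a SOCS box, read 0.304 and 0.355 TPM before induction, 0.0446 and 0.0325 on day 3, 0 and 0 on day 6, 0.0157 and 0.00722 on day 9, and 0.0966 and 0.097 in the ESC libraries. It fell from MEF to day 3, at -3.02 (SE 0.4, adjusted p = 1.8e-05), was at 0 reads in both day 6 libraries and at 2 and 2 at day 9, and had 20 and 23 reads in ESCs, where it was called higher than at day 9.

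Mest (chr6:30723547-30748465, plus strand), a paternally expressed hydrolase gene of mesodermal tissue, read 50.6 and 54.6 TPM in the MEF libraries, 8.37 and 11.7 on day 3, 7.33 and 5.02 on day 6, 5.58 and 7.12 on day 9 and 18.8 and 15 in the ESC libraries. The day 6 and day 9 libraries overlapped, and both MEF libraries were the highest. It fell from MEF to day 3, at -2.32 (SE 0.07, adjusted p = 5.1e-13), fell again to day 6, at -1.35 (SE 0.08, adjusted p = 4.9e-09), and was higher in ESCs than at day 9, at 1.34 (SE 0.08, adjusted p = 1.2e-09). Transcripts from the start printed above, between 30738050 and 30738055, took 60.8% and 58% of the TPM of Mest in MEFs and 51.7% and 52.6% in ESCs, and 44.4% to 88.7% in the induced libraries, where levels were low. Copg2, a coatomer subunit gene that overlaps the end of Mest on the other strand, read 15.6 and 10.2 TPM in MEF, then 10.4 and 11.7 on day 3, 8.57 and 10.3 on day 6 and 15.6 and 11.8 on day 9, and 19.6 and 14.9 in ESC. Copg2 passed in no comparison.

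The Snrpn-Ube3a region on chromosome 7, the mouse counterpart of the Prader-Willi and Angelman region, did not move as a block. Snrpn (chr7:59982495-60140219, minus strand) encodes a core protein of the spliceosome and read 3.9 and 3.8 TPM before induction, 4.74 and 5.01 on day 3, 8.89 and 8.69 on day 6, 12.3 and 12.7 on day 9, and 26.6 and 26.1 in the ESC libraries. It was higher at day 9 than at day 3, at 1.46 (SE 0.05, adjusted p = 3e-12), and higher in ESCs than in MEFs, at 2.7 (SE 0.05, adjusted p = 2.7e-15). Each later group lay above the one before it on the TPM scale. Snrpn shares sequence with the entry Snurf, which the tables list apart, so its level is uncertain. Ndn (chr7:62346569-62350262, plus strand), which encodes necdin, a growth suppressor of the MAGE family, read 34.7 and 32 TPM in the MEF libraries, 13.1 and 12.3 on day 3, 4.44 and 4.01 on day 6, 2.37 and 2.33 on day 9 and 7.22 and 7 in the ESC libraries. Ndn fell from MEF to day 3, at -1.42 (SE 0.06, adjusted p = 1.7e-11), and to day 6, at -1.58 (SE 0.07, adjusted p = 8.9e-11), and was higher in ESCs than at day 9, at 1.44 (SE 0.08, adjusted p = 7.5e-10).

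The neighbours of Ndn were low, apart from Ube3a. Mkrn3, a makorin ubiquitin ligase gene, read 0.134 and 0.0842 TPM in MEF, then 0.359 and 0.399 on day 3, 0.577 and 0.594 on day 6 and 0.68 and 0.734 on day 9, and 0.582 and 0.646 in ESC. It rose from MEF to day 3, at 1.78 (SE 0.26, adjusted p = 3.4e-05). Magel2, another MAGE gene, had 1 and 0 reads before induction, 0 and 0 on day 3, 1 and 3 on day 6, 2 and 0 on day 9, and 23 and 14.5 in the ESC libraries. It was called higher in ESCs than at day 9 and in MEFs. Peg12, a retrogene of the Frat family with paralogs elsewhere, ranged from 0.998 to 2.69 TPM and passed in no comparison. Ube3a, a ubiquitin ligase gene that is imprinted in neurons but not in most other cells, read 15.2 and 12.6 TPM in the MEF libraries, 8.59 and 11.5 on day 3, 16.1 and 14.8 on day 6, 12.6 and 10.8 on day 9 and 15 and 15 in the ESC libraries. Ube3a passed in none either.

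Nnat (chr2:157560078-157562522, plus strand) encodes neuronatin, a small membrane protein of the endoplasmic reticulum, and read 6.14 and 6.81 TPM in MEF, then 56.2 and 55.3 on day 3, 107 and 110 on day 6 and 90.7 and 92.7 on day 9, and 3.23 and 3.81 in ESC. It rose from MEF to day 3, at 3.13 (SE 0.06, adjusted p = 9.6e-15). The rise to day 6 lay at the 2-fold minimum, at 1 (SE 0.04, adjusted p = 1.3e-10), and was lost under DESeq2 and when day 3 replicate 2 or day 6 replicate 2 was left out. In ESCs Nnat was far below day 9, at -5.01 (SE 0.07, adjusted p = 1.7e-16). The 6 induced libraries all lay above the MEF and ESC libraries.

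Gnas (chr2:174284320-174346744, plus strand) encodes the stimulatory G protein alpha subunit, a gene with several promoters, and Nespas is the paternally expressed RNA antisense to its first exons. Gnas read 600 and 600 TPM before induction, 641 and 669 on day 3, 349 and 354 on day 6, 241 and 241 on day 9, and 140 and 134 in the ESC libraries. It was lower at day 9 than at day 3, at -1.35 (SE 0.03, adjusted p = 3.9e-14), and in ESCs than at day 9, at -1.01 (SE 0.03, adjusted p = 8.1e-13), which lies at the 2-fold minimum. Transcripts from the most upstream starts, between 174284320 and 174285358, made 0 to 3.11 TPM in any library. Those from starts between 174327570 and 174330287 took 61.8% to 68.1% of the TPM of Gnas. This group holds the main promoter, where most tissues express both alleles. A transcript that starts further downstream, at 174341704, took 31.1% to 37.3% of the TPM. By reads, 1 transcript of the main group, which starts at 174330089, held 71.8% to 75.5%, above the TPM share of that whole group. The TPM shares of the starts therefore depend on transcript length as well. The alleles behind each start were not separated. Such assignment of single reads of 50 nt to transcripts is uncertain. Nespas read 0.207 and 0.0409 TPM in the MEF libraries, 0.173 and 0.225 on day 3, 0.426 and 0.316 on day 6, 0.664 and 0.34 on day 9 and 0.223 and 0.179 in the ESC libraries. Its libraries held 5 to 61 reads each. Its rise from day 3 to day 9, at 1.34 (SE 0.43, adjusted p = 0.013), was lost under DESeq2.

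Peg13, a paternally expressed noncoding RNA in an intron of Trappc9, read 3.36 and 3.02 TPM in MEF, then 2.48 and 2.61 on day 3, 2.8 and 2.89 on day 6 and 1.67 and 1.6 on day 9, and 0.788 and 0.881 in ESC. It was lower in ESCs than at day 9, at -1.11 (SE 0.08, adjusted p = 1.5e-08). Its host Trappc9, a subunit gene of a vesicle trafficking complex, ranged from 4.17 to 6.2 TPM and passed in no comparison. Impact, a regulator of the kinase Gcn2, read 14.6 and 14.4 TPM before induction, 10.1 and 10.3 on day 3, 8.17 and 8.03 on day 6, 7.01 and 6.7 on day 9, and 14.3 and 13.3 in the ESC libraries. Impact passed in none. Zrsr1, a splicing factor retrogene in an intron of Commd1, ranged from 1.65 to 2.53 TPM. Rasgrf1, a Ras exchange factor of neurons, ranged from 0.0132 to 0.0557 TPM. In all, 9 of the 40 genes passed in none of the 6 comparisons: Kcnq1ot1, Tssc4, Copg2, Zrsr1, Peg12, Ube3a, Impact, Rasgrf1 and Trappc9. Scaling by library size without TMM called Kcnq1ot1 for day 3 against MEF and Copg2 for ESC against MEF.

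The first comparison set day 3 cells beside MEFs. Losses outnumbered gains: 13 fell (Igf2r, Cdkn1c, Slc22a18, Dlk1, Peg3, Usp29, Zim1, Peg10, Sgce, Asb4, Mest, Plagl1 and Ndn) and 5 rose (H19, Ascl2, Ppp1r9a, Mkrn3 and Nnat). That is 45% of the 40 genes against 29.1% of all tested genes in edgeR, with 14.5% of all genes lower and 14.6% higher. The median log2 fold change was -0.27 for the 40 genes and 0.08 for all genes. Of the 22 paternally expressed genes 8 fell and 2 rose, and of the 18 maternally expressed genes 5 fell and 3 rose. The 10 fibroblast and feeder markers moved with these losses: their sum went from 6399 to 6524 TPM in MEFs to 446 to 465 TPM at day 3, and 8 of the 10 fell. Their part in the result was not tested. Scaling by library size without TMM, which shifts the median of all genes to 0.285, ends the calls of Sgce and Plagl1, and DESeq2 ends that of Ascl2. limma on log2(TPM + 0.1) ends those of Ascl2, Usp29 and Sgce.

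Between day 3 and day 6, 8 fell (Igf2r, Airn, Cdkn1c, Sgce, Asb4, Mest, Plagl1 and Ndn) and 4 rose (Usp29, Peg10, Ppp1r9a and Nnat), 30% of the 40 genes against 19.5% of all genes, with 10.2% of all genes lower and 9.26% higher. The medians were 0.13 and 0.03. This step shares the day 3 libraries with the comparison of day 3 with MEF. The call of Usp29 is lost under DESeq2 and without day 3 replicate 1 or day 6 replicate 1, and limma on log2(TPM + 0.1) ends those of Usp29, Asb4, Mest and Nnat. All 10 fibroblast and feeder markers fell as well, to a sum of 29.3 to 31.2 TPM, and 5 of the 6 epithelial markers rose.

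The step from day 6 to day 9, between sorted groups, moved few of them. H19, Igf2 and Dlk1 fell and Phlda2, Slc22a18 and Zim1 rose, 15% of the 40 genes against 7.87% of all genes, with 2.68% of all genes lower and 5.18% higher. The medians were -0.14 and 0. The call of Zim1, on 4 and 5 reads against 12 and 21, is lost without day 6 replicate 1 or 2 or day 9 replicate 2, and limma on log2(TPM + 0.1) ends those of Zim1 and Slc22a18. From day 3 to day 9 directly, 11 fell (H19, Igf2, Igf2r, Airn, Cdkn1c, Dlk1, Sgce, Asb4, Plagl1, Ndn and Gnas) and 10 rose (Phlda2, Slc22a18, Peg3, Usp29, Zim1, Peg10, Ppp1r9a, Snrpn, Mkrn3 and Nespas). This was 52.5% of the 40 genes against 26.9% of all genes, with 13.3% of all genes lower and 13.5% higher, and the medians were -0.22 and 0.04. Day 3 cells were unsorted, so the span combines 6 days with a sort. The calls of Dlk1, Usp29, Zim1, Asb4 and Mkrn3 are lost without day 3 replicate 1 and also without day 9 replicate 2, and that of Nespas without day 3 replicate 2 or day 9 replicate 1. DESeq2 ends the calls of Asb4, Mkrn3 and Nespas, scaling by library size that of Dlk1, and limma on log2(TPM + 0.1) those of Usp29, Zim1, Asb4, Mkrn3 and Nespas.

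ESCs differed from day 9 cells in 21 of the 40 genes. In ESCs 11 were higher (Cdkn1c, Phlda2, Slc22a18, Ascl2, Usp29, Zim1, Peg10, Asb4, Mest, Ndn and Magel2) and 10 were lower (H19, Igf2, Meg3, Rian, Mirg, Plagl1, Grb10, Nnat, Gnas and Peg13). This was 52.5% against 32.9% of all genes, with 18.6% of all genes higher and 14.3% lower, and the medians were -0.12 and 0. Maternally expressed genes divided into 6 higher and 6 lower of 18, and paternally expressed genes into 5 higher and 4 lower of 22. The call of Gnas is lost under DESeq2, under scaling by library size and without day 9 replicate 2, and limma on log2(TPM + 0.1) ends those of Meg3, Asb4, Magel2, Gnas and Peg13. At both pseudocounts limma also called Igf2r and Snrpn, which edgeR did not. Against MEFs, ESCs were lower in 21 of the 40 genes (H19, Igf2, Igf2r, Airn, Cdkn1c, Dlk1, Meg3, Rian, Mirg, Rtl1, Peg3, Zim1, Sgce, Asb4, Mest, Plagl1, Grb10, Ndn, Nnat, Gnas and Peg13) and higher in 10 (Phlda2, Slc22a18, Ascl2, Usp29, Peg10, Ppp1r9a, Snrpn, Magel2, Mkrn3 and Nespas). This was 77.5% against 46.1% of all genes, with 20.6% of all genes lower and 25.5% higher. The medians were -1.17 and 0.1. Scaling by library size, which shifts the median of all genes to 0.438 here, ends the calls of Mirg and Nnat. The call of Nespas is lost under DESeq2, without MEF replicate 2 and without ESC replicate 1, and that of Nnat without MEF replicate 2. limma on log2(TPM + 0.1) ends those of Rtl1, Magel2, Nnat and Nespas. In each comparison 2 or 3 of the 40 genes had at most 3 reads per library in a group, and without them the medians of the 40 genes were -0.35, 0.18, -0.15, -0.35, -0.24 and -1.48 in the order in which the 6 comparisons are given here.

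Some genes fell at the first step and were higher at the far end than on day 9. Of the 13 genes that fell from MEF to day 3, 8 were also higher in ESCs than at day 9: Slc22a18, Zim1, Ndn, Cdkn1c, Asb4, Usp29, Mest and Peg10. These are 61.5% of the first list and 72.7% of the 11 genes of the second, which come from comparisons with no library in common. Among all tested genes, 51.7% of those that fell at day 3 and 40.3% of those higher in ESCs than at day 9 were in both lists. All 8 had a lower mean TPM on day 9 than in MEFs, from 3.49% of the MEF mean for Asb4 to 68.2% for Peg10. The libraries of Slc22a18 overlapped, at 0.521 and 0.415 TPM on day 9 and 0.95 and 0.466 in MEFs. No test of day 9 against MEF was run. H19 and Nnat rose from MEF to day 3 and were lower in ESCs than on day 9, which is 40% of the 5 genes that rose and 20% of the 10 lower in ESCs, against 43.1% and 44% over all genes.

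Fibroblast and feeder markers moved with those 8 genes. All 10 fibroblast and feeder markers were also higher in ESCs than at day 9, with a sum of 537 and 571 TPM in the ESC libraries, whose labels name irradiated feeder cells. Lum, which was at 0 TPM in both day 9 libraries, read 0.0473 and 0.14 TPM in ESCs. In ESCs the markers stood at 1.17% to 14.8% of their MEF level, with a median of 8.99%. Of the 28 imprinted genes at 1 TPM or more in MEFs, 22 were above that range in ESCs, among them Zim1, Peg10, Mest and Ndn. The lower end of the range is Lum, on 6 and 20 reads in ESCs, and the other 9 markers stood at 5.4% to 14.8%. Airn and Cdkn1c lay within that narrower range, and H19 (1.12%), Igf2 (0.509%), Dlk1 (2.67%) and Plagl1 (2.59%) lay below it. Against all 10 markers, Dlk1 and Plagl1 lay within the range and only H19 and Igf2 below it. Phlda2 had 0 and 1 reads in MEFs against 1186 and 1339 in ESCs. The part of feeder RNA in the ESC levels of these genes was not tested.

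**Figure D3:**
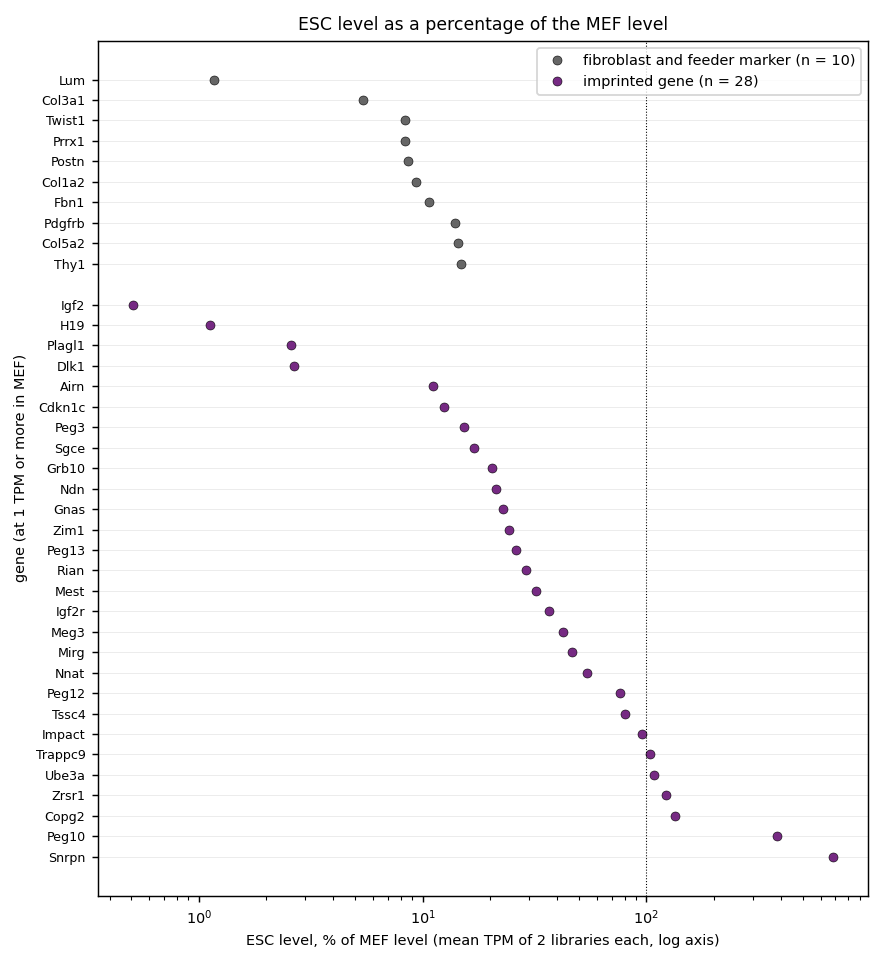
Mean ESC level as a percentage of the mean MEF level (log axis) for 10 fibroblast and feeder markers (grey) and the 28 imprinted genes at 1 TPM or more in MEFs (purple); the dotted line marks 100%. The markers other than Lum (1.17%, on 6 and 20 ESC reads) span 5.4% to 14.8%, with Igf2, H19, Plagl1 and Dlk1 below that span and 22 imprinted genes above it.

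The machinery that keeps imprints was read beside them as 17 genes, which bind, methylate or demethylate control regions. In edgeR 3 rose and 2 fell from MEF to day 3 (29.4% of the 17, near the 29.1% of all genes). From day 3 to day 6, 3 rose and none fell (17.6%, beside 9.26% of all genes higher and 19.5% called in either direction). From day 6 to day 9, 3 rose and none fell (17.6%, beside 5.18% higher and 7.87% in either direction). Over the whole span after day 3, 7 were higher by day 9 (41.2%, beside 13.5% of all genes higher), and ESCs were above day 9 in 7 and below in 1 (47.1% beside 32.9%). Trim28, the corepressor that ZFP57 recruits, had the highest level of them and read 220 and 219 TPM in the MEF libraries, 272 and 261 on day 3, 369 and 374 on day 6, 381 and 374 on day 9 and 992 and 951 in the ESC libraries. It was higher in ESCs than at day 9, at 1.34 (SE 0.03, adjusted p = 8.9e-14). Dppa3, which protects imprints in the egg and zygote, had 0 to 2 reads in each MEF, day 3 and day 6 library, 54 and 55 at day 9 and 306 and 356 in ESCs. Dnmt3l, the cofactor of the de novo DNA methyltransferases, read 0.475 and 0.868 TPM in MEF, then 0.0285 and 0.0163 on day 3, 0.0317 and 0 on day 6 and 0.429 and 0.381 on day 9, and 142 and 129 in ESC, and was higher in ESCs than at day 9, at 8.16 (SE 0.09, adjusted p = 2.5e-17). Tet3, a dioxygenase that oxidises 5-methylcytosine, was the 1 regulator lower in ESCs than at day 9, at -2.45 (SE 0.06, adjusted p = 4.2e-14), with 2.73 and 2.43 TPM before induction, 4.06 and 4.25 on day 3, 4.59 and 4.53 on day 6, 3.18 and 3.04 on day 9, and 0.695 and 0.606 in the ESC libraries.

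Of 34 further imprinted genes outside the 40, 32 were in the tables and 26 passed the filter. From MEF to day 3, 5 rose and 5 fell (38.5% of the 26 beside 29.1% of all genes). From day 3 to day 6, 11 fell (42.3% beside 10.2% lower), and 13 fell from day 3 to day 9 (50% beside 13.3% lower). ESCs were above day 9 in 6 and below in 3 (34.6%, near the 32.9% of all genes). Cd81, a tetraspanin gene of the Kcnq1ot1 domain, had the highest level and read 250 and 246 TPM in the MEF libraries, 321 and 329 on day 3, 187 and 182 on day 6, 158 and 157 on day 9 and 131 and 131 in the ESC libraries. Tfpi2, a protease inhibitor gene, had 304 and 377 reads in MEFs, 4 and 2 at day 3, none in the 4 sorted libraries and 197 and 203 in ESCs. Slc22a3, a transporter gene near Igf2r, had no reads in MEFs, 267 and 236 on day 3, 68 and 56 on day 6, 9 and 17 on day 9 and 1 and 0 in the ESC libraries.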

How the data were processed

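Per the labels' protocols, total RNA went into a stranded mRNA kit and was read in single-end mode, 50 nt. The submitters' processing notes name Salmon 0.8.2 and mm10. The authors deposited, per transcript, estimated counts (not normalized) and TPM values (scaled by effective length and to a common total), both summed here per gene. Gene coordinates are those of GENCODE M21 (GRCm38).

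Summed estimated counts were rounded. Genes were kept with filterByExpr of edgeR 4.0.16 (R 4.3.3, minimum count 10, minimum total 15), which left 20165, and scaled with TMM. The quasi-likelihood test used 1 fit of 5 group means over the 10 libraries, adjusted over all tested genes (Benjamini-Hochberg). Alternatives were DESeq2 1.42.0, limma 3.58.1 on log2(TPM + 1) and log2(TPM + 0.1), other filters and scaling, only the 2 groups compared, no fold change minimum, a replicate block and leaving out each library. On simulated counts for day 3 with MEF (20165 genes, 200 changed), edgeR recovered 99%, DESeq2 98% and limma 86%, with 0 unchanged genes called. The changed genes there were drawn above a minimum read count, their folds lay above the 2-fold minimum, and every gene had the same spread. Recovery of low-read genes and of changes near 2-fold was therefore not tested.

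The 40 genes and the marker and gene lists were chosen with earlier results of these data known. Every library's values are given for genes at 10 TPM or more in a group or called in any comparison, and for at most 5 genes of each of the other 2 lists: the largest rise and fall among those called in day 9 with day 3 and ESC with day 9, and the highest level. All libraries carry 1 batch label. Replicates are biological per the series' design text, but no culture or animal is named for each, so p-values measure the spread between these libraries. No pair of replicates matched within sampling noise (chi-square per degree of freedom 2.7 to 4.91).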

Additional observations from a re-analysis of the deposited data

How the results depend on the processing

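Of 109 called values of single imprinted genes, none changed direction in 1381 values under the alternatives, 1269 kept their side of the threshold and 112 did not, the latter from 46 of the 109. Requiring 10 CPM in 2 libraries tests 29 of the 40 genes and left 3 higher at day 3 than in MEFs (12.5% of all genes tested under that setting), 2 at day 6 than at day 3 (6.88%), 1 at day 9 than at day 6 (4.07%), 5 at day 9 than at day 3 (9.91%), 5 in ESCs than at day 9 (12.9%) and 4 in ESCs than in MEFs (20%). limma on log2(TPM + 1), which shrinks changes of low genes by construction, left 2, 1, 1 and 2 higher in the first 4 of these comparisons (6.35%, 2.91%, 1.14% and 4.38% of all genes) and 5 higher in ESCs than in MEFs (13.8%). It left 5 lower at day 6 than at day 3 (4.04%) and 5 lower in ESCs than at day 9 (5.29%). limma on log2(TPM + 0.1) left 2 higher at day 6 than at day 3 (6.18%), 1 at day 9 than at day 6 (2.84%) and 6 at day 9 than at day 3 (8.99%). DESeq2 left 2 higher at day 6 than at day 3 (4.56%), where the cause was not tested. With no fold change minimum, the day 3 count against MEF became 14 up and 20 down, beside 35.4% and 29.5% of all genes. From day 3 to day 6 it became 15 up and 16 down (29.2% and 27.3%), and from day 6 to day 9 it became 9 up and 17 down (15.7% and 18.9%). It became 20 down for day 9 against day 3 (30.8%) and 17 up for ESC against day 9 (36.1%).

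Leaving out 1 library at a time gave 5 to 6 up and 13 down on day 3 against MEF, 3 to 4 higher and 8 lower at day 6 than at day 3, 2 to 3 higher and 3 to 4 lower at day 9 than at day 6, 7 to 10 higher and 9 to 11 lower at day 9 than at day 3, 11 higher and 10 lower in ESCs than at day 9, and 9 to 10 higher and 20 to 21 lower in ESCs than in MEFs. A group left with 1 library is assumed to vary like the others. Equal replicate numbers did not pair the libraries (deviations correlated at -0.02 to 0.022 over 10 pairs of libraries), and a fit with a replicate block gave 5 up and 13 down on day 3 against MEF and kept all 109 calls.

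Many values under about 1 TPM rest on few reads, and Phlda2, Asb4, Magel2 and Ascl2 had at most 3 reads per library in some groups. Genes with long transcripts can hold more reads at such values, as Kcnq1ot1 did with 468.1 to 1330.2 per library. Genes that overlap on opposite strands (Airn and Igf2r, Nespas and Gnas, Mest and Copg2) and retrogenes with paralogs (Zrsr1, Peg12, Mkrn3) are uncertain, since their reads cannot be told apart. The same holds for Peg13 and its host Trappc9, which overlap on the same strand. Allele of origin, DNA methylation and binding were not analysed here.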
